A study of Mus musculus with 2 samples.

Results

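The genes described here carry glucose into the cell, split it to pyruvate and lactate, and build or break down glycogen. They were the 49 genes of a fixed list of symbols, out of 55536 genes in the gene table. These genes were chosen by name, without a cut on any measured value, though with earlier results of these data known. They were measured in total RNA depleted of ribosomal RNA from heart tissue of B6CASTF1/J males from The Jackson Laboratory at an age of 2 months; the strain is the F1 of B6 crossed with CAST, and no table separates the parental alleles. The samples formed 1 group of 2 libraries, replicate 1 and replicate 2, with no treatment and no second tissue, each made from 300 ng of RNA. The labels share a donor entry but number the males separately, so taking the libraries as 2 mice is a reading of the labels. With no second group, the results are levels, ratios between genes within a library, and differences between the 2 mice. Levels are given as TPM, an abundance corrected for transcript length and scaled to a fixed library total, and errors are the SD over the 2 mice (n = 2). The smallest 2-sided p that 2 mice allow in an exact test is 0.5, so no p is given. Total expected counts, spike-ins included, were 39177981 in replicate 1 and 44544839 in replicate 2. All 8 cardiomyocyte markers checked were high, between 391 TPM for Ryr2 and 8071 TPM for Myl2 (means of the 2 mice). In the gene table the fast skeletal muscle myosins Myh1, Myh2 and Myh4 were at most 0.01 TPM. The highest of the 6 fast skeletal muscle markers, Tnni2, had 1.03 TPM in each mouse.

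Glucose enters muscle cells through facilitative transporters, of which GLUT4 moves to the surface when insulin is present. Hexokinase traps it as glucose-6-phosphate, which enters glycolysis, where phosphofructokinase is the main point of control, or is stored as glycogen. Most steps have several genes whose products differ in tissue and regulation, and the adult heart, which draws mainly on fatty acids, also takes up and oxidises lactate.

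Transcripts of the pyruvate kinase gene Pkm (ENSMUSG00000032294.17) were grouped by which of 2 alternative exons they hold. These exons are printed here because only these 2 internal exons separate the M1 from the M2 enzyme. M1 is the form of adult muscle, heart and brain, and M2 that of many proliferating and embryonic tissues. Both exons lie on the plus strand of chromosome 9 (GRCm38) and are read from the GENCODE M21 transcripts, 5′ to 3′, with capitals at each position where they differ. The M1 exon is chr9:59675029-59675195 and the M2 exon is chr9:59675568-59675734, with 372 bases of intron between them.
M1 exon: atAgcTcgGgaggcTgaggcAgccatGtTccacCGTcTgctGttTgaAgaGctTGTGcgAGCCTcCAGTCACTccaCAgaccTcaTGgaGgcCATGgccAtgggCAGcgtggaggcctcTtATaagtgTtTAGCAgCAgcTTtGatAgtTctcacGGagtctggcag
M2 exon: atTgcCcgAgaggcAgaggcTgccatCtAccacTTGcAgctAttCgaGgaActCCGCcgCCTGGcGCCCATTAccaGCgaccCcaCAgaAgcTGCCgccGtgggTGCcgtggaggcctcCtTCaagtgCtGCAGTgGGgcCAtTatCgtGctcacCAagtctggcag
The exons have the same length, 167 bases, and differ at 64 positions. Of 55 complete codons, 22 encode a different residue.

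Most of the pathway was expressed, and Gapdh, Aldoa, Ldhb and Eno3 were its highest genes. Of the 49 genes, 40 reached 1 TPM in both mice, the level taken as detection, against 21.5% of all 55536 genes and 49.8% of the 22015 nuclear protein-coding genes. At 100 TPM in both mice there were 15 members, against 2.44% of nuclear protein-coding genes. Gapdh, Aldoa, Ldhb and Eno3 ranked 22, 24, 34 and 80 by mean TPM among nuclear protein-coding genes. The median of all 49 members was 38.9 ± 0.346 TPM; over detected genes only, the median was 48.4 ± 0.548 TPM for members and 8.68 ± 0.205 TPM for nuclear protein-coding genes. Together the members held 2.21 ± 0.0805% of nuclear protein-coding TPM, and the 5 highest of them held 61.7 ± 0.544% of the members' sum. In whole tissue, fewer cells of a type and less RNA per cell cannot be told apart.

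**Figure D1:**
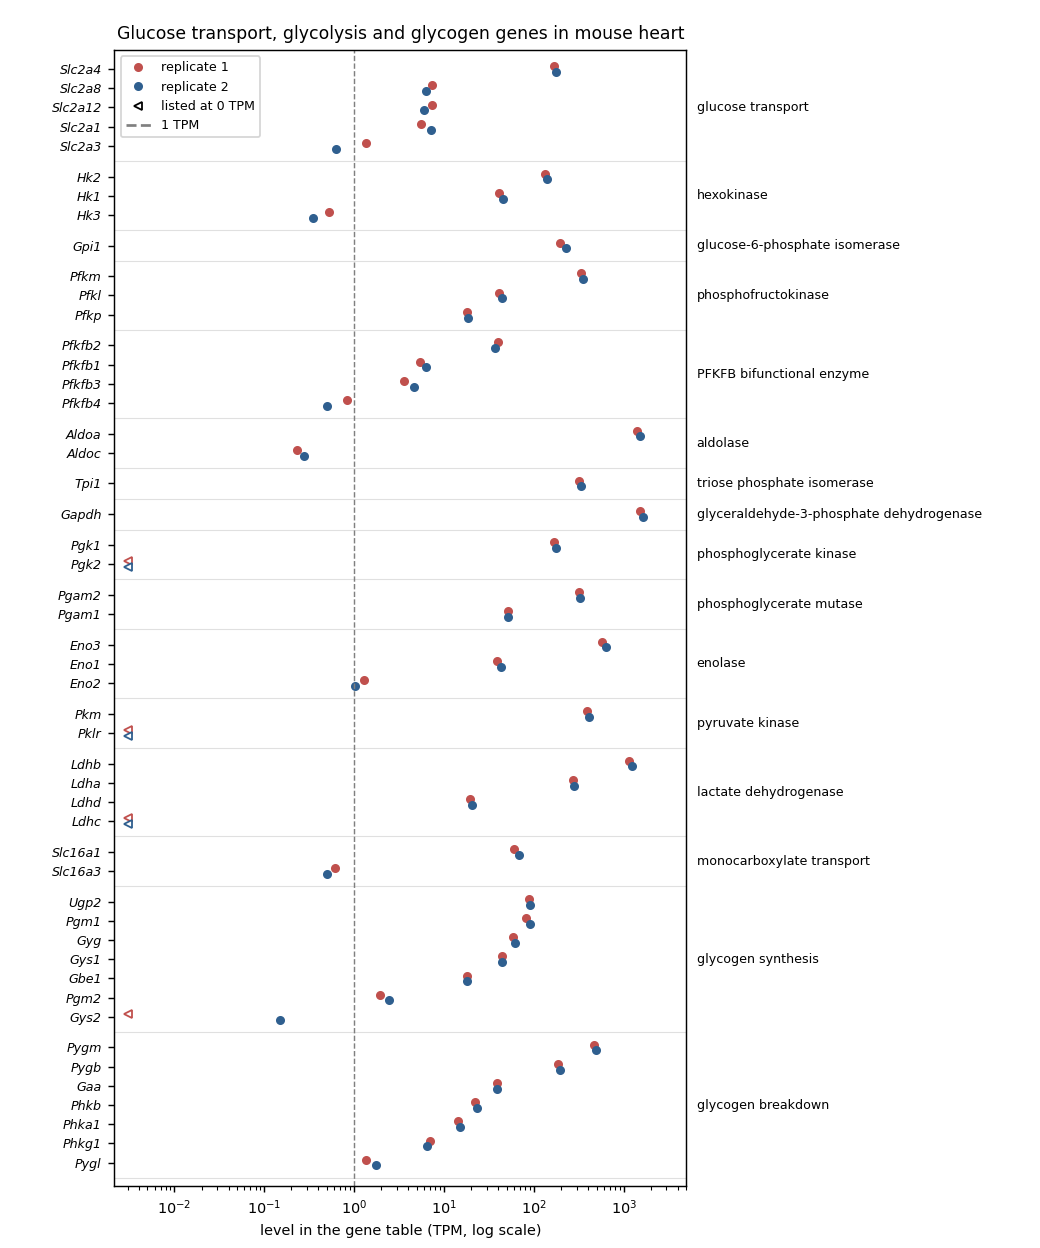
Level of each of the 49 genes in replicate 1 and replicate 2 (TPM, log axis), grouped by role; open triangles mark genes listed at 0 TPM and the dashed line marks 1 TPM. Gapdh, Aldoa and Ldhb are the 3 highest genes in both mice, and Pgk2, Pklr and Ldhc are listed at 0 in both.

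Glucose transport rested on Slc2a4. This gene for the insulin-responsive transporter GLUT4 had 168 TPM in replicate 1 and 175 TPM in replicate 2 and held 89.1 ± 0.739% of the summed TPM of the 5 transporter genes. Slc2a1, the basal transporter GLUT1, had 5.50 and 7.24 TPM. Slc2a8, a transporter of internal membranes, had 7.44 and 6.36 TPM, and Slc2a12, the gene of GLUT12, had 7.40 and 6.01 TPM. In the gene table Slc2a1 was the lowest of these 3 genes in replicate 1 and the highest in replicate 2, while Slc2a8 was above Slc2a12 in both mice. In the second quantification they kept a single order, with Slc2a1 at 8.68 and 11.01 TPM, Slc2a8 at 6.92 and 6.62 TPM and Slc2a12 at 5.21 and 5.45 TPM, so their order depends on the quantification. Slc2a3, the high-affinity transporter of neurons and several blood cells, had 1.37 and 0.63 TPM and missed detection in replicate 2. Slc2a4 exceeded Slc2a1 by 30.6-fold in replicate 1 and 24.2-fold in replicate 2. Slc2a12 shares 9.61% of its exon bases with Tbpl1 on the opposite strand (6.53 and 8.81 TPM), and since no source used here tells if strand entered the counting, its reads may include some of that gene.

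Phosphorylation of glucose and of fructose-6-phosphate followed the muscle forms. Hk2, the insulin-regulated hexokinase of muscle, had 133 and 139 TPM and Hk1, the widely expressed form, 40.5 and 45.9 TPM. Hk3, a hexokinase of leukocytes, had 0.52 and 0.35 TPM. Hk2 exceeded Hk1 by 3.16 ± 0.176-fold, and by 2.31-fold in the second quantification. Gpi1, the isomerase of the next step, had 198 and 227 TPM. Pfkm, the muscle phosphofructokinase, had 331 and 353 TPM. The liver form Pfkl had 40.8 and 43.9 TPM and the platelet form Pfkp 18.0 and 18.4 TPM. Of the exon bases of Pfkp, 5.58% lie opposite exons of Pitrm1 (20.47 and 22.85 TPM), so its reads may include some of that gene. Pfkm exceeded Pfkl by 8.07 ± 0.0577-fold and Pfkp by 18.8 ± 0.518-fold, and in both mice Pfkm held 84.9% to 85.0% of the step. The bifunctional PFKFB enzymes make and remove fructose-2,6-bisphosphate, an activator of phosphofructokinase. Pfkfb2, the heart form, had 40.0 and 37.0 TPM, Pfkfb1 5.37 and 6.28 TPM and Pfkfb3, an inducible form with strong kinase activity, 3.62 and 4.64 TPM. Pfkfb4, known from testis, had 0.84 and 0.50 TPM. Pfkfb2 held 78.4 ± 2.73% of the TPM of the family.

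Aldolase and glyceraldehyde-3-phosphate dehydrogenase were among the most abundant enzymes of the hearts. Aldoa, the muscle aldolase, had 1406 and 1515 TPM, while Aldoc, the brain form, had 0.23 and 0.28 TPM. Tpi1, the triose phosphate isomerase, had 315 and 339 TPM. Gapdh had 1512 and 1653 TPM, a level that depended on the quantification, as given below. Pgk1, the phosphoglycerate kinase of body tissues, had 169.5 and 174.9 TPM. Its testis copy Pgk2 had 0 counts in both mice, which allows at most 3 counts, or 0.0634 TPM in replicate 1 and 0.0558 TPM in replicate 2, so Pgk1 was at least 2674-fold and 3132-fold higher in these mice.

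Phosphoglycerate mutase and enolase again showed the muscle gene ahead. Pgam2, the muscle mutase, had 316 and 325 TPM and Pgam1, the form of brain and most other tissues, 51.8 and 51.6 TPM. Pgam2 exceeded Pgam1 by 6.20 ± 0.140-fold in TPM, but by 2.76-fold in expected counts, where the longer Pgam1 transcripts weigh more. The 250 bases before the annotated start of each gene are shown to set the paralogs side by side; they come from RefSeq (GRCm38.p6). The Pgam2 window is chr11:5803797-5804046 on the minus strand and the Pgam1 window is chr19:41911621-41911870 on the plus strand, and capitals mark the match to the MEF2 motif.
Pgam2: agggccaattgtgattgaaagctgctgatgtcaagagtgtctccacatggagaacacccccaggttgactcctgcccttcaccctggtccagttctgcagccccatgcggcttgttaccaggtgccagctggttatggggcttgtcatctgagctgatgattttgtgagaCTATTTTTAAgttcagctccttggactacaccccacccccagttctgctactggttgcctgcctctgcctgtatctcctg
Pgam1: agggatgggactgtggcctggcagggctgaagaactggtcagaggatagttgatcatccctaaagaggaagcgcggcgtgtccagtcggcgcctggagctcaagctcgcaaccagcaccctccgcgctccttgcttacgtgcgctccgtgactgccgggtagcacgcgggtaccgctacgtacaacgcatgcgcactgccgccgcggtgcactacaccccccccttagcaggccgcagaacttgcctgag
The MEF2 motif, bound by myocyte enhancer factors, was searched on both strands from 250 bases before to 50 bases after each start. It was found 80 bases before the Pgam2 start and not in the Pgam1 window, and it occurred in 1.86% of all 32851 windows. GC content was 53.2% in the printed Pgam2 stretch and 64.0% in that of Pgam1. Among the 66 windows of the 46 members in the table, 2 held the MEF2 motif (Pgam2 and Pfkfb1). The letters ACGTG, the core of hypoxia response elements, which also occur within the E-box CACGTG, were in 29 of the 66 windows, or 43.9%, against 19.6% of all windows; base composition was not matched. Eno3, the muscle enolase, had 569 and 636 TPM, Eno1, the ubiquitous form, 38.5 and 42.7 TPM, and Eno2, the neuronal form, 1.28 and 1.02 TPM. Eno3 exceeded Eno1 by 14.8 ± 0.0637-fold. Eno1 is uncertain, since near-identical copies took 39.8% and 40.7% of the joint counts of Eno1 and its copies; with the copies added to it, the ratio was 9.27 ± 0.145-fold.

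The last steps of glycolysis and the exchange of lactate showed the heart subunit of lactate dehydrogenase far ahead. Pkm had 394 and 414 TPM, and Pklr, the pyruvate kinase of liver and red cells, had 0 counts in both mice in the gene table. In the second table Pklr had 2 estimated counts in replicate 1 and 0 in replicate 2, and its mean posterior TPM in the gene table was 0.385. Ldhb, whose subunit predominates in heart, had 1141 and 1239 TPM and Ldha, the muscle subunit, 275 and 283 TPM. Ldhb exceeded Ldha by 4.27 ± 0.159-fold in the gene table, by 5.60-fold in the second quantification and by 2.95-fold in expected counts. The testis gene Ldhc, which starts 5.575 kb from Ldha on chromosome 7, had 0 counts in both mice. Ldhd, which oxidises D-lactate, had 19.6 and 20.5 TPM, but 42.2% of its exon bases lie opposite exons of Znrf1 (21.9 and 22.6 TPM), so its level is uncertain. Slc16a1, the lactate carrier MCT1, had 60.7 and 67.7 TPM. Slc16a3, the carrier MCT4 of strongly glycolytic cells, had 0.61 and 0.50 TPM, so Slc16a1 was 99.5-fold higher in replicate 1 and 135-fold higher in replicate 2.

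Glycogen genes were led by phosphorylase. Pygm, the muscle glycogen phosphorylase, had 466 and 498 TPM and Pygb, the brain form, 188 and 197 TPM. Pygl, the liver form, had 1.34 and 1.74 TPM. Pygm exceeded Pygb by 2.50 ± 0.0334-fold, the smallest lead among pairs whose first gene had over 100 TPM, and by 1.66-fold in expected counts. Phosphorylase kinase, which switches phosphorylase on, was lower. Its alpha subunit of muscle, Phka1, had 14.2 and 15.0 TPM and the beta subunit Phkb 22.4 and 23.5 TPM. The catalytic gamma subunit of muscle, Phkg1, had 6.96 and 6.44 TPM, against 6.79 and 6.69 TPM of Phkg2, the gamma subunit of liver and testis. The order of Phkg1 and Phkg2 turned round between the mice, and 9.68% of the exon bases of Phkg1 lie opposite exons of Sumf2 (4.32 and 3.48 TPM). Gaa, the lysosomal glucosidase that is deficient in Pompe disease, had 38.7 and 39.2 TPM. On the side of synthesis, Ugp2, which makes UDP-glucose, had 89.50 and 89.99 TPM and Pgm1, the phosphoglucomutase, 82.3 and 89.6 TPM. Of the exon bases of Pgm1, 13.6% lie opposite exons of Itgb3bp (1.66 and 1.87 TPM). Pgm2 had 1.95 and 2.45 TPM; the symbols Pgm1 and Pgm2 follow GENCODE M21 and are interchanged in older mouse use. Gyg, the self-glucosylating primer glycogenin, had 59.4 and 61.7 TPM, and Gys1, the muscle glycogen synthase, 44.1 and 44.2 TPM. Gbe1, the branching enzyme, had 18.0 and 17.9 TPM. Gys2, the liver synthase, had 0 counts in replicate 1 and 4 counts, or 0.15 TPM, in replicate 2.

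Summed by step of glycolysis in the gene table, Gapdh (1582 ± 99.0 TPM), lactate dehydrogenase (1489 ± 75.5 TPM) and aldolase (1461 ± 76.9 TPM) stood highest, in this order in both mice. Enolase followed at 644 ± 49.8 TPM. Pyruvate kinase (404 ± 14.1 TPM), phosphofructokinase (403 ± 17.6 TPM) and phosphoglycerate mutase (372 ± 6.10 TPM) formed a middle set, in which pyruvate kinase and phosphofructokinase changed their order between the mice. Triose phosphate isomerase had 327 ± 17.2 TPM and glucose-6-phosphate isomerase 212 ± 20.0 TPM. The lowest steps were glucose transport at 193 ± 3.53 TPM, hexokinase at 179.6 ± 7.95 TPM and phosphoglycerate kinase at 172 ± 3.82 TPM. In the second quantification hexokinase was lowest at 176 ± 8.12 TPM, under phosphoglycerate kinase (205 ± 4.17 TPM) and glucose transport (217 ± 6.55 TPM). That quantification kept the order of the highest steps, with Gapdh at 3508 TPM, lactate dehydrogenase at 2646 TPM and aldolase at 1783 TPM. The first place of Gapdh depends on the unit. In expected counts Gapdh (27881 and 34714) was below Aldoa (59776 and 74233) and Ldhb (36536.5 and 44307.4). Of Gapdh TPM in the first transcript table, 73.1% lay on Gapdh-208, of 483 bases and without a coding sequence. The step sums are RNA levels per transcript length and were not compared with enzyme amounts.

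In 14 of 15 groups of paralogs the gene named first, the form known from muscle or heart or, for Slc16a1 and Pgk1, the form of most body tissues, had the highest TPM in both mice. The exception was the gamma subunit of phosphorylase kinase, where Phkg1 over Phkg2 was 1.03-fold in replicate 1 and 0.963-fold in replicate 2. Counted by pairs, 24 of 25 had the first gene higher in both mice. The groups and their first genes were set with earlier results of these data known. Both counts are therefore descriptions and not tests. Phka1 exceeded Phka2, the alpha subunit of liver, by 2.96 ± 0.140-fold.

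**Figure D2:**
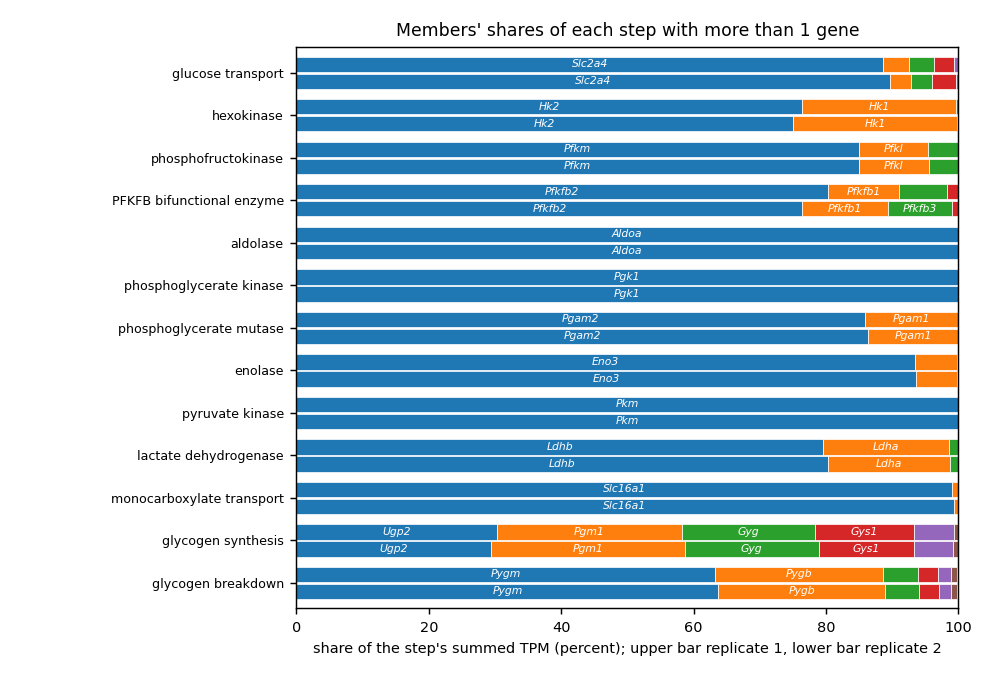
Share of each gene in the summed TPM of its step (percent), for steps with more than 1 gene, with replicate 1 above replicate 2 and genes ordered by share. Slc2a4, Pfkm, Pgam2, Eno3 and Slc16a1 each hold at least 84.9% of their step in both mice, and the glycogen synthesis genes share theirs among Ugp2, Pgm1, Gyg and Gys1.

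The Pkm transcripts that hold the M1 exon and the one that holds the M2 exon had similar TPM. Reads on the exons themselves were not counted, so the amounts of the M1 and M2 forms were not measured directly. Transcripts with the M1 exon had 207 and 226 TPM and the transcript with the M2 exon 183 and 185 TPM in the first transcript table, which has the columns of the gene table. The M1 share was 53.0% in replicate 1 and 55.0% in replicate 2. In the second transcript table, made directly from reads, M1 had 208 and 230 TPM and M2 224 and 228 TPM, a share of 48.2% and 50.3%. M1 is thus above M2 in the first table and level with it in the second, and which form leads cannot be told from these tables. Of 11 annotated Pkm transcripts, 2 hold the M1 exon, 1 holds the M2 exon and 8 hold neither. The full-length M2 transcript, Pkm-201, also has 205 more bases in its first exon and 186 more in its last exon than the full-length M1 transcript, Pkm-202, so reads outside the alternative exons entered the share. Of the splicing factors known to favour M2, Ptbp1 had 17.8 and 16.8 TPM, Hnrnpa1 55.2 and 57.2 TPM and Hnrnpa2b1 149 and 157 TPM.

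Other members differed in their leading transcript, the one with the most TPM of its gene. Of 38 detected members with more than 1 annotated transcript, 27 had the same leading transcript in both tables and 11 did not: Hk1, Pfkm, Pfkfb3, Gapdh, Eno2, Eno3, Pkm, Ldha, Ldhb, Gyg and Gbe1. In the first table the lead was the same in both mice for 33 of the 38. It changed between the mice for Pfkm, Pfkfb3, Eno2, Gbe1 and Ugp2, so the lead of these 5 genes in that table is that of the mean only. The same transcript held over 90% of the gene in both tables for 5 of the 38, namely Pgk1, Pgam1, Gys1, Pygl and Pgm1. Pfkm has several annotated first exons. The most upstream first exon, at chromosome 15 from 98092589 to 98092665, held 59.9 ± 1.60% of Pfkm TPM in the first table and 30.5 ± 0.252% in the second. The downstream exon from 98108466 to 98108611, that of Pfkm-201, held 40.1 ± 1.60% and 42.5 ± 0.479%. An exon between them, that of Pfkm-204, was at 0 in the first table and held 27.02 ± 0.228% in the second. Short transcripts weigh on these TPM shares. Pfkm-203, of 438 bases and with the upstream exon, held 18.3% of TPM but 2.71% of expected counts in the first table. Pfkm-204, of 785 bases, held 6.32% of counts in the second. The full-length Pfkm-205 and Pfkm-201 have the same coding length, 2340 bases. They held 48.6% and 48.7% of expected counts in the first table, so these shares do not tell which start leads. For Hk1, Hk1-202 held 61.5 ± 1.39% in the first table and 24.3 ± 1.38% in the second, which was led by Hk1-205 at 38.3 ± 1.60%. Eno3-201 held 51.3 ± 0.485% of Eno3 TPM in the first table and 21.4 ± 3.27% in the second, where Eno3-202 held 55.1 ± 4.06%; both have a coding length of 1302 bases. Gyg-203, with a coding length of 999 bases, held 93.7 ± 0.917% in the first table, against 24.6 ± 0.512% in the second, where Gyg-201, with 1131 bases, held 74.2%. Among genes with the same lead in both, Aldoa-201 led Aldoa with 91.6 ± 1.87% and 67.2 ± 6.33%, and Tpi1-205 led Tpi1 with 97.0% and 85.9%.

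**Figure D3:**
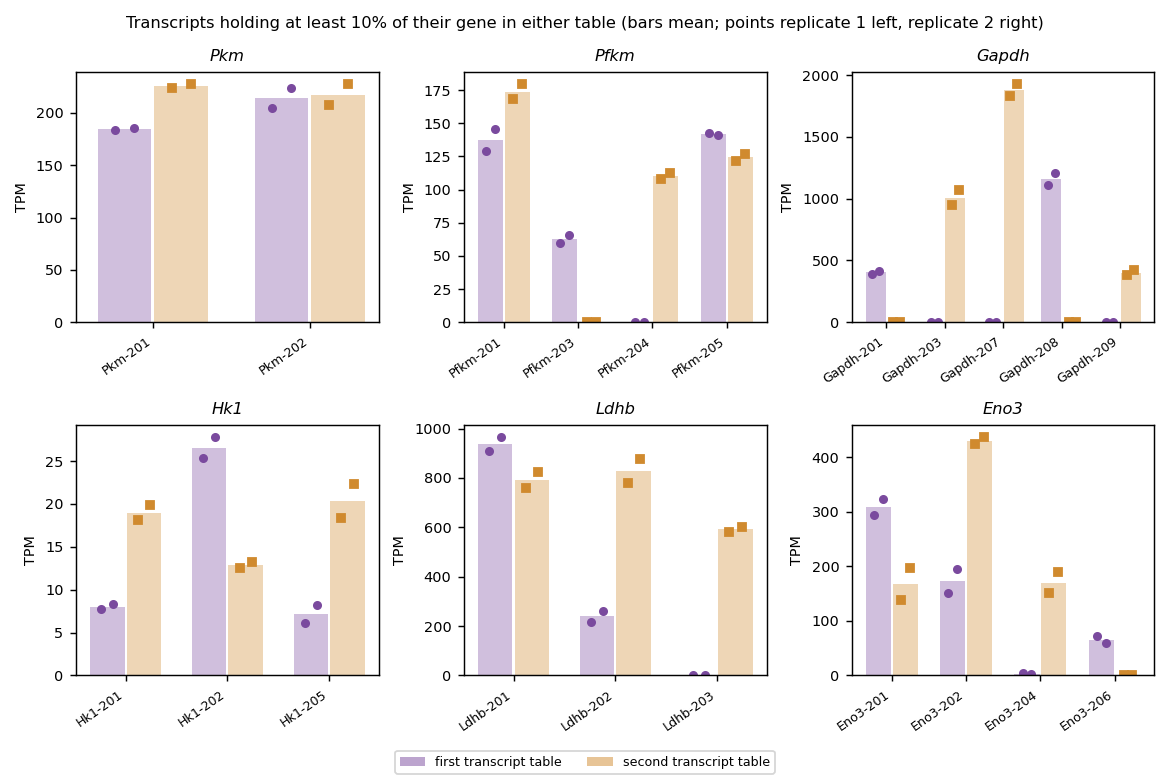
Level (TPM) of each transcript that holds at least 10% of its gene in either transcript table, for 6 genes; bars are means and points the mice, with replicate 1 left of replicate 2. The mice lie close together within a table, while the tables place Gapdh, Pfkm and Ldhb on different transcripts.

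The quantifications agreed on most members and parted on Gapdh. Of 41 members with at least 1 TPM in either source, 1 differed by 2-fold or more between the gene table and the gene sums of the second transcript table, against 9.25% of 13012 genes. This was Gapdh, with 1582 ± 99.0 TPM in the gene table and 3508 ± 190.4 TPM in the second table, a log2 ratio of -1.15. Ldhb had 1190 ± 69.0 TPM and 2225 ± 124.7 TPM (log2 -0.90), Eno2 1.15 and 2.08 TPM (log2 -0.85) and Slc2a1 6.37 and 9.84 TPM (log2 -0.63). At 1.5-fold these were the 4 members called, against 19.6% of all genes. The second table was higher for 37 of the 41, and the median log2 ratio was -0.23 for members and -0.21 for all genes. In counts, Gapdh also stood apart. It had 27881 and 34714 expected counts in the gene table, against 48468 and 60577 estimated counts in the second table, a log2 ratio of -0.80. The other 41 members that averaged 50 or more expected counts lay between -0.24 (Pfkfb4) and 0.21 (Pgam2). Ldhb, at -0.04, held almost the same counts in both.

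The transcripts of Gapdh and Ldhb differed between the tables, and short ones weighed more in TPM than in counts. In the first table Gapdh-208, a processed transcript of 483 bases without a coding sequence, held 73.1 ± 0.292% of Gapdh TPM and 47.1% of its expected counts, and it was at 0 in the second table. Gapdh-201, of 1272 bases, held 50.1% of expected counts in the first table and was at 0 in the second. There Gapdh-207, of 471 bases, held 53.6 ± 0.968% of TPM and 18.4% of counts, and Gapdh-203, of 1420 bases, 28.8 ± 0.798% of TPM and 69.9% of counts. Ldhb-202, of 437 bases, held 20.2% of Ldhb TPM in the first table and 37.2% in the second. Ldhb-201, of 1304 bases, held 78.8% of TPM and 92.6% of counts in the first table, and 35.5% of TPM and 64.0% of counts in the second. Near-identical copies were found for 9 members, a copy being a gene that shares 50% or more of its 31-base words with the member. Gapdh had 43 such copies, 41 of them pseudogenes, which took 6.78% and 5.76% of the counts of Gapdh and its copies together in the gene table. In the second table the copies summed to 656 TPM, of which 598 and 636 TPM lay on the pseudogene Gm7336, against 15.4 and 17.5 TPM in the gene table. The copies of Pgk1 took 4.54% and 5.31%, that of Gpi1 3.79% and 3.83%, that of Pgam1 2.71% and 3.20% and that of Ldhb 1.97% and 1.91% of counts. Their part in the differences between the quantifications was not tested.

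**Figure D4:**
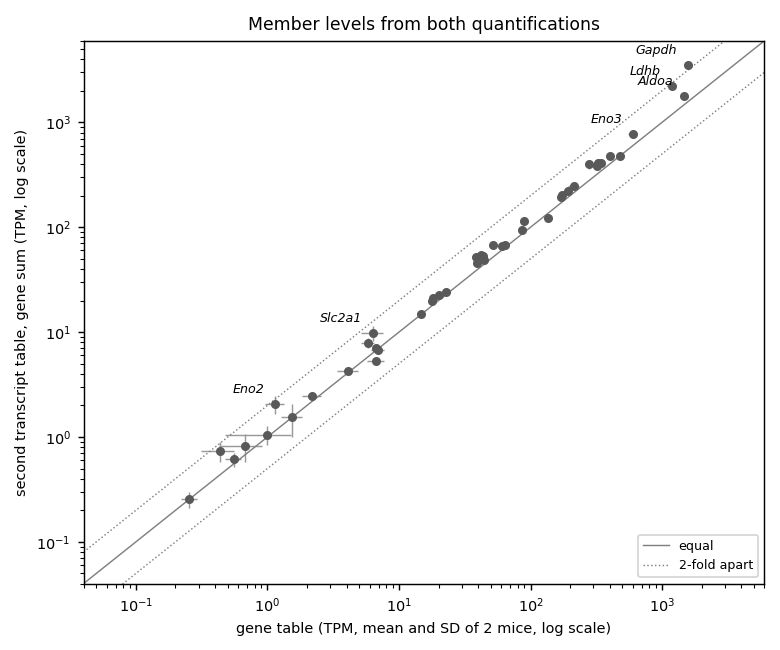
Mean level of each member with over 0.05 TPM in both sources, in the gene table (horizontal, TPM, log axis) and in the gene sums of the second transcript table (vertical, TPM, log axis), with SD of the 2 mice; the solid line marks equal values and the dotted lines a 2-fold difference. Gapdh lies above the upper dotted line, and Ldhb and Eno2 lie just under it.

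The 2 mice were close for nearly every member. Among the 42 members whose expected counts averaged 50 or more, none differed by 2-fold between replicate 1 and replicate 2 in TMM-scaled counts, against 0.57% of 12453 genes. At 1.5-fold there were 2, Slc2a3 and Eno2, against 2.09% of genes. The median absolute log2 ratio was 0.054 for members and 0.078 for all genes tested. The interval of the ratio, which covers counting error only and narrows as counts rise, excluded 0 for 21 of the 42 members, against 19.6% of genes. Counts were not matched between members and all genes, so these shares do not compare the size of the differences. Of the 21 members, 5 were higher in replicate 1 and 16 in replicate 2, against 1073 and 1364 of all genes tested. With scaling by spike-in counts, which moved the log2 ratio of all genes by -0.17, the split was 1 and 35 for members. For all genes it was 225 and 6658. Such a shift leans any set of genes to replicate 2, so the split under that scaling says nothing particular to the members. The biological coefficient of variation over all genes was 6.63%.

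Slc2a3 had 133 expected counts in replicate 1 and 87 in replicate 2, a log2 ratio of 0.84 (95% counting interval 0.44 to 1.25). Its TPM differed more, at 1.37 and 0.63, and the effective length in the table was 3132 bases in replicate 1 and 3928 bases in replicate 2. Eno2 had 60 and 46 counts (log2 0.61, interval 0.04 to 1.20). Of 5 neutrophil markers, S100a9 (5.94 and 3.51 TPM) and S100a8 (5.84 and 2.94 TPM) were higher in replicate 1. The other 3 were not, with Mmp8 at 0.07 and 0.09 TPM, Camp at 0 and 0.04 TPM and Ly6g at 0 in both mice. The list summed to 11.9 TPM in replicate 1 and 6.58 TPM in replicate 2, with medians of 0.07 and 0.09 TPM, and its part in the Slc2a3 difference was not tested. In the other direction, Pfkfb3 had 264 and 428 counts (log2 -0.46, interval -0.69 to -0.24), Pygl 104 and 167 counts (log2 -0.45, interval -0.82 to -0.09) and Slc2a1 474 and 659 counts (log2 -0.24, interval -0.42 to -0.07). Smooth muscle and pericyte markers were lower in replicate 1 for all 5 of the list, though Pdgfrb hardly differed (log2 -0.004, interval -0.09 to 0.08). Tagln had 22.8 and 35.9 TPM (log2 -0.57) and Rgs5, the highest, 102.7 and 109.7 TPM (log2 -0.05), and their part in these differences was not tested. Pfkfb2 was higher in replicate 1, with a log2 ratio of 0.21 (interval 0.14 to 0.28). The abundant enzymes differed by little. Eno3 had a log2 ratio of -0.12, Gapdh -0.08, Aldoa -0.08, Ldhb -0.05, Pfkm -0.03 and Pkm -0.02. The red cell markers were higher in replicate 1, by 3.11-fold for Hba-a1 to 3.54-fold for Hbb-bt among the globins, with a list sum of 20348 and 6413 TPM. Pklr had 0 counts in both mice in the gene table, and 2 counts in replicate 1 and 0 in replicate 2 in the second table.

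**Figure D5:**
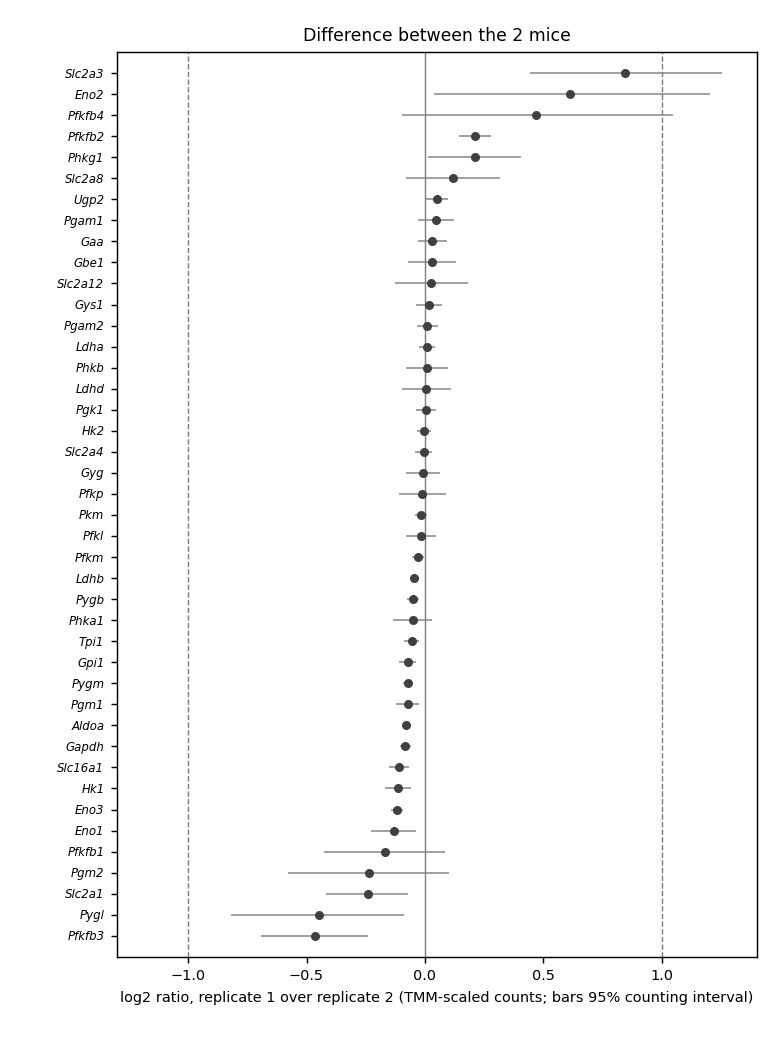
Log2 ratio of TMM-scaled counts, replicate 1 over replicate 2, for the 42 members averaging 50 or more expected counts; bars are 95% counting intervals and dashed lines mark 2-fold. Most points lie near 0, and Slc2a3 and Eno2 are farthest to the right.

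The genes around the pathway were described from 8 further lists of 98 genes, of which 78 were detected and 46 had at least 10 TPM in both mice. Only Pck1, the phosphoenolpyruvate carboxykinase of gluconeogenesis, differed by 2-fold between the mice among the 79 tested, with 1.96 TPM in replicate 1 and 6.88 TPM in replicate 2. Of 7 adipocyte markers, all but Plin4 were lower in replicate 1. Plin1 had 1.25 and 2.61 TPM, Adipoq 1.13 and 2.25 TPM, Cidec 1.05 and 2.98 TPM and Cfd 6.56 and 8.76 TPM, with Lep lowest at 0.01 and 0.03 TPM. Plin4, at 65.4 and 65.2 TPM, made up most of the list's sums of 75.7 and 82.2 TPM. The part of these markers in the Pck1 difference was not tested. Bpgm, which makes 2,3-bisphosphoglycerate in red cells, had 25.1 and 14.8 TPM (log2 0.91), beside the higher red cell markers of replicate 1, and their part in it was not tested.

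Outside the main transporters, 1 of 9 further glucose and hexose transporter genes was detected and none reached 10 TPM. Among enzymes, Tigar, which removes fructose-2,6-bisphosphate, had 20.3 and 22.9 TPM. Fbp2, the muscle fructose bisphosphatase, had 9.92 and 11.3 TPM, while G6pc3, a glucose-6-phosphatase found in most tissues, had 18.1 and 19.4 TPM and Pcx, pyruvate carboxylase, 17.3 and 20.1 TPM. G6pc, the liver glucose-6-phosphatase, was at 0 in both mice. The lactate carriers' chaperone Bsg had 537 and 572 TPM.

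Of 24 further genes of glycogen metabolism, 22 were detected and 13 had at least 10 TPM. The subunits that target protein phosphatase 1 to glycogen were led by Ppp1r3c (36.3 and 34.7 TPM) and Ppp1r3a (31.5 and 34.0 TPM), and of the catalytic subunits Ppp1cb was highest at 174 and 180.4 TPM. Epm2a, the glycogen phosphatase laforin, had 13.8 and 13.6 TPM. Gsk3a, a kinase that acts on glycogen synthase, had 24.3 and 26.6 TPM. Pgm5, a relative of phosphoglucomutase without its enzyme activity, had 36.9 and 39.3 TPM.

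All 11 genes of the pentose phosphate and polyol routes were detected. Those of the polyol route were highest, with Akr1b3, aldose reductase, at 101 and 108 TPM and Sord, sorbitol dehydrogenase, at 73.3 and 77.5 TPM. G6pdx, which opens the pentose phosphate pathway, had 2.01 and 2.72 TPM and Pgd, a later enzyme of it, 13.6 and 14.1 TPM. For traffic of GLUT4, 12 of 13 genes were detected, led by Lnpep, the aminopeptidase that travels with it, at 70.0 and 70.5 TPM. Tbc1d4, the GTPase-activating protein downstream of insulin, had 32.6 and 32.2 TPM, while its relative Tbc1d1 had 4.96 and 5.07 TPM. Regulators of glycolytic genes were detected for 17 of 18. Txnip, which restrains glucose uptake, had 107 and 106 TPM, Epas1 99.5 and 106 TPM and Hif1a 16.8 and 17.5 TPM. Mef2a had 45.1 and 51.5 TPM and Mef2d 45.0 and 49.4 TPM. The glucose-responsive Mlxip had 10.5 and 10.7 TPM.

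Markers of other cell types were also present in the tissue. Those of red cells were the highest after cardiomyocytes, at the sums given above. Smooth muscle and pericyte markers summed to 184 TPM in replicate 1 and 222 TPM in replicate 2, and macrophage and monocyte markers to 34.6 and 35.4 TPM. Endothelial markers lay between 18.8 and 52.7 TPM, summing to 213 TPM in replicate 1 and 209.8 TPM in replicate 2. Fibroblast markers were led by Dcn (137 and 154 TPM) and were lowest for Tcf21 (3.50 and 3.68 TPM). Of 5 hepatocyte markers, 1 was detected, Cyp2e1 at 3.02 TPM in replicate 1 and 4.87 TPM in replicate 2, while Alb was at 0 in both. The testis markers Prm1, Prm2, Tnp1 and Tnp2 were at 0 in both mice. Fast skeletal muscle markers were highest for Tnni2 at 1.03 TPM in each mouse, and Myh2 was at 0 in both.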

How the data were processed

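Total RNA of 2 mouse hearts was quantified by the authors against mm10 and GENCODE M21, per the deposited descriptions of the files. Per the file headers, the authors gave an expected count, a TPM, a posterior mean TPM and an FPKM per gene and per transcript in a pair of tables, derived from transcriptome alignments. Per the file headers, a further table of theirs, the second transcript table, gives an estimated count and a TPM per transcript, derived directly from reads. The aligner, the quantifiers, their versions and the use of strand are not named in any source used here.

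Symbols and coordinates came from GENCODE M21, which matched all 55536 genes; of the identifiers of Aldoa, that with the highest count was kept. Expected counts were rounded for edgeR 4.0.16 under R 4.3.3; TMM factors and a common dispersion came from 15170 genes that passed filterByExpr, with no covariate. To compare the mice, TMM-scaled counts plus a prior of 0.5 in replicate 1 were divided by those in replicate 2, where expected counts averaged 50 or more. Their intervals are exact Clopper-Pearson intervals at 95%; these and the floor of 3 counts per library cover counting error only, since no molecular identifiers are present. On simulated counts for this comparison, made for the 12458 genes whose TMM-scaled counts averaged 50 or more (12453 before scaling), 100 of 100 genes changed 4-fold, 0 of 100 changed 1.5-fold and 1 of 12258 unchanged genes were called at 2-fold. The simulation gave every gene the same common dispersion, so genes that vary more are absent from it. With so small a spread the 2-fold cut itself decides the calls at 4-fold and 1.5-fold. Its rate of calls among unchanged genes is thus not that of these data, where 71 of 12453 genes were called. Nothing in the labels pairs the libraries with others.

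The members and all lists, paralog groups and tests were chosen with earlier results of these data known. All 49 members could be named; other pathway genes were named at 10 TPM in both mice, in a paralog group or at a 2-fold difference, and markers as the highest or lowest of their list; others are examples chosen after their values were seen. Transcripts were named where the leading one differed between tables and for Pkm, Pfkm and the 10 highest members. Alternatives were other units (FPKM, posterior mean TPM, the second table, and TPM set relative to the nuclear protein-coding sum), other scalings (size factors from DESeq2 1.42.0, total counts, spike-ins), other thresholds and priors, and each mouse alone. Other steps used pandas 2.3.3, numpy 2.4.6, scipy 1.17.1 and matplotlib 3.10.9 under Python 3.11.15. Some genes of the further lists are not reported here.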

Additional observations from a re-analysis of the deposited data

How the results depend on the processing

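No paired analysis was possible because there is only 1 group. Members detected numbered 40 and stayed between 36 (at 5 TPM) and 43 (at 0.5 TPM, and with TPM rescaled to nuclear protein-coding genes) under the 8 alternatives run, with 40 and 41 in each mouse alone. No member was 2-fold apart between the mice under the alternatives run, except 1 without a filter on counts (Gys2, with 0 and 4 counts); at 1.5-fold there were 2. Spike-in scaling moved the log2 ratio of all genes by -0.17 and turned that of Ugp2 to -0.12, against 0.05 with TMM; under it 5 members were higher in replicate 1 and 37 in replicate 2, and 1508 and 10945 of all 12453 genes tested. Paralog groups led by the first gene numbered 14, and 15 in replicate 1 alone and in expected counts, where Phkg1 exceeded Phkg2. The M1 share of Pkm was 53.0% to 55.0% over the single mice, 49.3% in the second table and 49.2% in expected counts. Gapdh alone was 2-fold apart between quantifications under each alternative at 2-fold, and 4 members were at 1.5-fold. Of 49 levels, 35 moved by more than the spread between the mice with the second table, 42 in FPKM, 16 in posterior mean TPM and 46 with TPM rescaled to nuclear protein-coding genes, where Slc2a4 stood at 439.7 TPM against 172 TPM. Transcripts of the same gene overlap in sequence, which limits every isoform share, and low genes such as Slc2a3, Hk3 and Eno2 rest on few counts.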
